A study of Drosophila melanogaster with 3 samples.

Results

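The genes that encode RNA polymerase II and the proteins that bring it to promoters were examined for binding of CoRest, the scaffold of a corepressor complex that joins a histone demethylase to a histone deacetylase. Members were the protein-coding genes of the Ensembl annotation whose symbol begins with MED or Taf followed by a digit, with Polr2, or with TfII. They numbered 62 of 13945 protein-coding genes on the main chromosome arms: 25 Mediator subunits, 15 TBP-associated factors, 13 polymerase subunits and 9 general transcription factors. The measurement was chromatin immunoprecipitation sequencing (ChIP-seq) with an antibody against GFP. The material was whole Drosophila melanogaster embryos, males and females together, 0 to 24 hours old, from 1 transgenic line with stable expression of CoRest fused to GFP at its C-terminus. The 3 biological replicates formed 1 group with no second genotype, treatment or time. Because whole embryos of mixed age were used, binding in few cells and weak binding in many cannot be told apart.

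RNA polymerase II makes messenger RNA in all cells. To start, it is placed at the promoter by general transcription factors: TFIID, built of TBP and the Taf proteins, recognises the core promoter, and TFIIA, TFIIB, TFIIE, TFIIF and TFIIH complete the assembly. Mediator is a large complex of head, middle and tail modules that relays signals from regulators bound elsewhere to the polymerase. Apart from paralogues such as Taf12L and TfIIA-S-2, most of these genes encode parts of a machinery that nearly every cell uses.

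The files were 5 peak lists. There was 1 of 30000 peaks for each replicate, 1 of 30000 from the replicates pooled, and 1 thresholded for reproducibility between replicates (IDR), whose 8721 peaks were the 8721 strongest pooled ones with the same intervals and summits. A gene was called bound when a thresholded summit lay within 500 bp of one of its start sites. Peaks were ranked within a list by the authors' deposited signal, with 1 the strongest, and a rank given without a replicate is the pooled one. Summit positions are distances in bp to the closest start site of that gene, negative upstream. Read numbers were not analysed here, so the depth is unknown, and no mock or input list was analysed here. No test was run over the list of genes, since its members are not replicates, and its counts stand beside the same counts over all genes.

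Sequences of 5 members with high-ranked peaks are given first, to show the intervals in which these summits lay. Of the others that ranked high, Polr2H and Taf2 are not shown because their windows are exonic, and sequence from the chromosome arm of Taf5 is not printed here. They are from the RefSeq assembly of the dm6 genome, on the member's strand, and lie within 100 bp of the summit except for MED17, where the 200 bases up to the start site are given, with annotated exons left out. Capitals mark the 5 motifs searched on both strands: TATCGATA (the DRE, bound by DREF), GGTCACAC (core of the M1BP site), CGATA (BEAF-32, whose letters lie within the DRE), TATAAA (the TATA box) and GAGAG (GAGA factor).
Polr2B, chr3R:14125595-14125790, plus strand: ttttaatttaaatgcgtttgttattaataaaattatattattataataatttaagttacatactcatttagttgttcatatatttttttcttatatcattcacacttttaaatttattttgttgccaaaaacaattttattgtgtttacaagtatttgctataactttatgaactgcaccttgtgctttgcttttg
MED27, chr3R:5654900-5655100, plus strand: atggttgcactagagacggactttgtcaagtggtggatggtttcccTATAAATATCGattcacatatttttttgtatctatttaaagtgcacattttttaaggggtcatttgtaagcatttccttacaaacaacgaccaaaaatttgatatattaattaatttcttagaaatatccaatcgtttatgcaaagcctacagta
Polr2J, chr2L:17410437-17410637, minus strand: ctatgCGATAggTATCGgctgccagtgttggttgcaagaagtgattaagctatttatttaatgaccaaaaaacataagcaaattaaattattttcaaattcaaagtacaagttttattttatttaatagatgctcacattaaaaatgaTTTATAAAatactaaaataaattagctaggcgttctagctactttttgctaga
MED30, chr3L:654177-654362, minus strand: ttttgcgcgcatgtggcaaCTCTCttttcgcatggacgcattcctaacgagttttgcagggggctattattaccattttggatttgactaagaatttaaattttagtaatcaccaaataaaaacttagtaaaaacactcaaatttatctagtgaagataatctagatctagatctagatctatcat
MED17, upstream of its start site, chr3R:18188872-18189071, plus strand: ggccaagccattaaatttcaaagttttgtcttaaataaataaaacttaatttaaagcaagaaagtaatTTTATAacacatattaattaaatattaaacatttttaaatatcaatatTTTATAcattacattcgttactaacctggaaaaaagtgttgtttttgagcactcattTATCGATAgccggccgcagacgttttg
The GC content of these intervals was 20.4% at Polr2B, 31.3% at MED27, 27.4% at Polr2J, 33.3% at MED30 and 26% at MED17. Within 100 bp of the summit the median GC content was 32.8% over the strongest peaks of the bound members. It was 34.3% over all promoter peaks, weaker ones of a gene included, 40.8% at Polr2H and 23.4% at Taf5. The Polr2B interval held none of the 5 motifs. The MED17 interval held TATA matches and, 147 bp from the summit, a DRE.

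The next 6 intervals belong to members without a thresholded peak and are shown because they are short and, in 4 of them, hold a DRE. They run from the partner's start site to the member's or, for Polr2L, cover the bases just upstream.
Polr2D to Tgs1, chr3R:18255488-18255529, minus strand: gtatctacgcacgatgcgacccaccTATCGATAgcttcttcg
MED18 to Gcna, chrX:1865836-1865908, plus strand: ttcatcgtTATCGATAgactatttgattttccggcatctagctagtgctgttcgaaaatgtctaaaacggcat
MED28 to CG4553, chr3R:25476916-25477002, plus strand: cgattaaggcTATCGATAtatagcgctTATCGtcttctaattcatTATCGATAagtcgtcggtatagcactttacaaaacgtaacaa
Polr2L, upstream of its start site, chr3R:24717431-24717510, plus strand: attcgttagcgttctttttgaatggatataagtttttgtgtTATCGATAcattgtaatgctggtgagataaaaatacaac
Taf10 to Taf10b, chr2L:2767846-2767889, plus strand: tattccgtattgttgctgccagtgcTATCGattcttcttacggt
MED20 to Trf, chr2L:8072849-8072894, minus strand: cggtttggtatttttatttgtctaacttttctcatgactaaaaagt
The interval between Polr2D and Tgs1 was 42 bases long and that between Taf10 and Taf10b 44. The interval of MED28 held the DRE at 2 places, beginning at -77 and -42 bp from the start site, and that of MED20 held none of the motifs. No thresholded summit lay within 500 bp of these 7 genes.

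A thresholded promoter peak was present at 39 of 62 members (62.9%), where 35.4% of all protein-coding genes had one. When the start site nearest to the summit had to be the member's own, 23 members were bound (37.1%), beside 27% of all genes, and the Taf count was 2 of 15. Among the 8721 strongest peaks of each replicate, members were bound in 62.9%, 64.5% and 59.7% of cases (mean 62.4% ± 2.46, SD, n = 3). All protein-coding genes were bound in 36.2%, 36.6% and 33.6% in the same lists (mean 35.5% ± 1.63, SD, n = 3). The lowest replicate value of the members lay above the highest of all genes. The replicates count the same genes again, so this shows that the calls repeat and is no test of the difference. In the 3 replicates' lists of strongest peaks 33 members were bound each time (53.2%, beside 28.5% of all genes), and 11 were bound in 1 or 2 of them. When a thresholded peak also had to be among the strongest peaks of a pair of replicates, 33 members were bound (53.2%) whichever replicate was left out, beside 28.3%, 29.7% and 29.5% of all genes without replicates 1, 2 and 3. With promoter windows of 250 and 1000 bp, 35 and 41 members were bound (56.5% and 66.1%), beside 29% and 39.3% of all genes. With the outermost start site of each gene alone, 37 members were bound (59.7%), beside 33% of all genes.

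**Figure D1:**
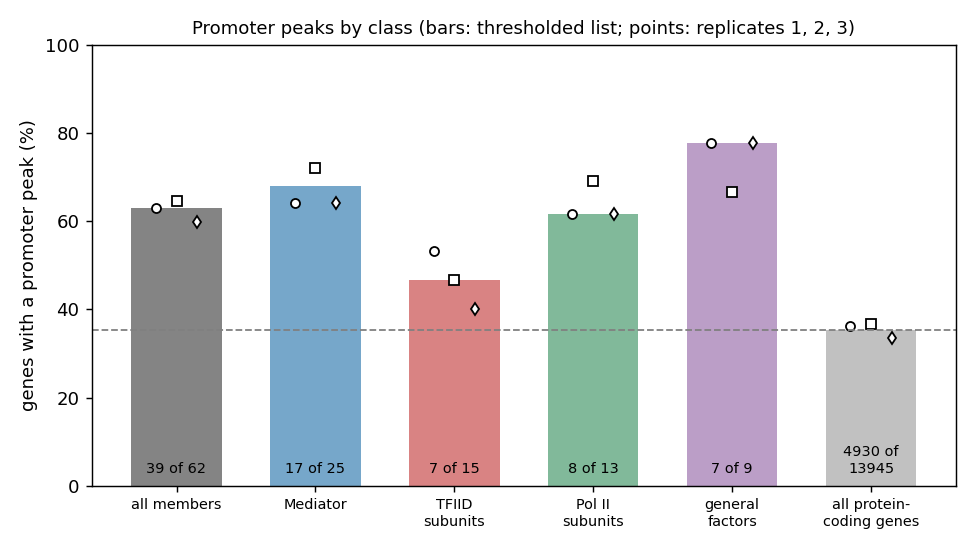
Share of genes with a promoter peak (%), by class. Bars give the thresholded list with the counts written in them, points the 8721 strongest peaks of replicates 1 (circle), 2 (square) and 3 (diamond), and the dashed line the 35.4% of all protein-coding genes. All 4 classes stood above that line in each list. In the thresholded list TFIID subunits were lowest (46.7%) and general factors highest (77.8%), while in replicate 2 general factors (66.7%) stood below Mediator (72%) and polymerase subunits (69.2%).

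By class, general factors were bound at 7 of 9 genes (77.8%; replicates 74.1% ± 6.42), Mediator subunits at 17 of 25 (68%; replicates 66.7% ± 4.62), polymerase subunits at 8 of 13 (61.5%; replicates 64.1% ± 4.44) and Taf genes at 7 of 15 (46.7%; replicates 46.7% ± 6.67), all SD over n = 3. These classes are small: 1 gene moves the share of general factors by more than its replicate SD. The Taf replicate values were 53.3%, 46.7% and 40%, and those of the general factors 77.8%, 66.7% and 77.8%, beside 36.2%, 36.6% and 33.6% of all genes. The replicates count the same genes again, so these values do not show a difference between the classes. With all pooled peaks the order turned, with 12 of 15 Taf genes (80%) and 7 of 9 general factors (77.8%), beside 51.8% of all genes.

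The 4360 strongest thresholded peaks reached 27 members (43.5%), beside 21.8% of all genes. Among bound members, the strongest promoter peak had a median rank of 2816 (201 to 8223), against 3386 for all 4930 bound genes. Among bound members 9 of 39 (23.1%) ranked within the top 872 peaks, the strongest 10% of the thresholded list, against 769 of 4930 bound genes (15.6%). The median rank over the members bound in each replicate was 2981, 3908 and 2641 (mean 3176 ± 655, SD, n = 3). This spread is that of the members' median alone, and the median of all bound genes is not given by replicate here. It is no measure of the difference between 2816 and 3386, and no difference in rank is drawn from these medians.

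**Figure D2:**
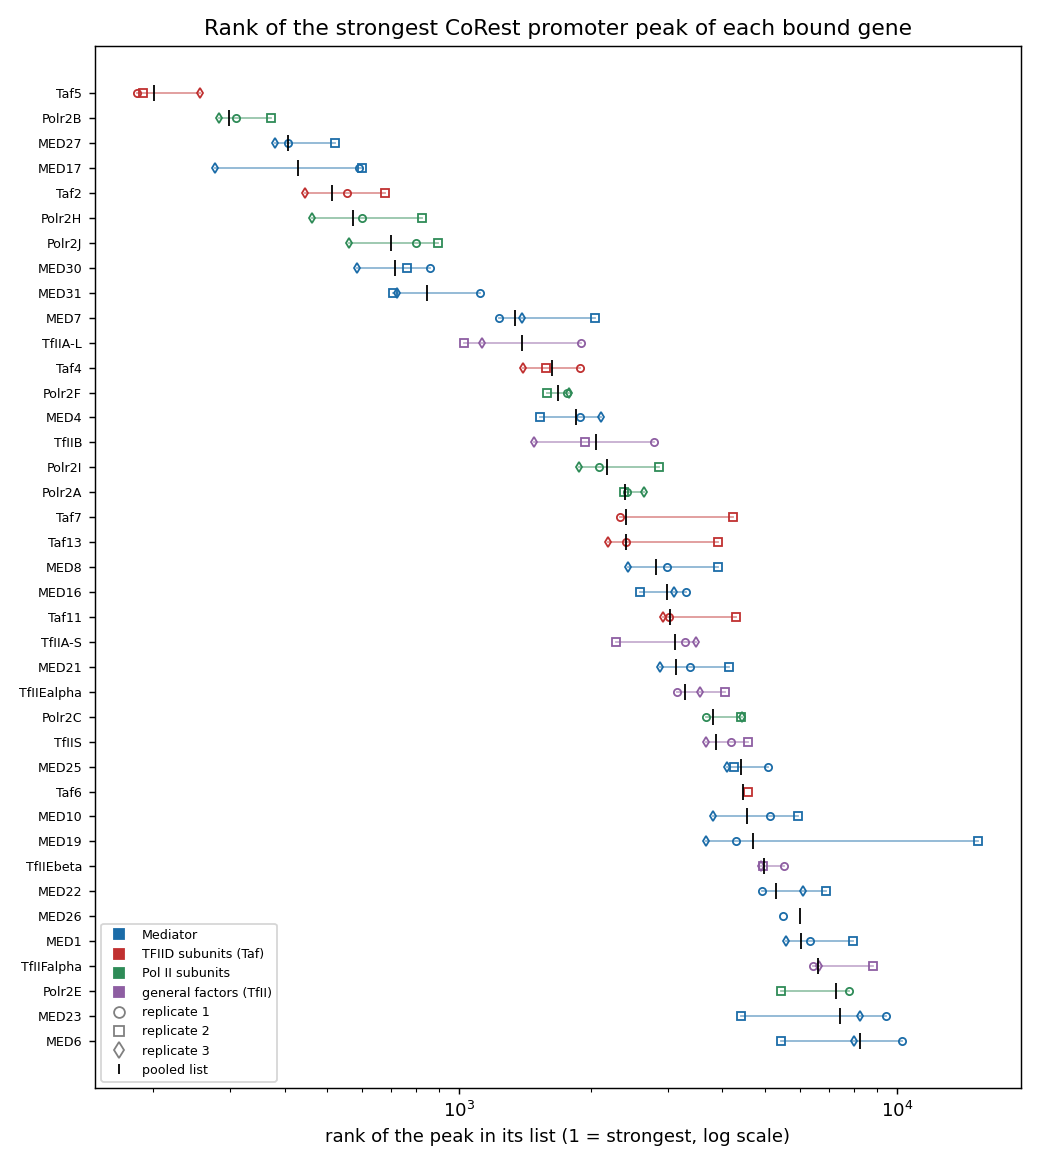
Rank of the strongest thresholded promoter peak of each of the 39 bound members (log scale, 1 is the strongest peak of a list), ordered by pooled rank (black tick). Open symbols give the rank of a summit within 100 bp in replicates 1, 2 and 3, coloured by class; a missing symbol means no such summit. Ranks run from 201 for Taf5 to 8223 for MED6, and MED19 has the widest range, with rank 15366 in replicate 2.

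Of the polymerase genes, Polr2A, which encodes the largest subunit with the catalytic centre and the C-terminal repeat domain, had a summit at -162 bp (X 11570266 to 11570709, rank 2400). Its replicate ranks were 2427, 2384 and 2641. Polr2B, the second largest subunit, had the strongest peak of this class, with its summit at -96 bp (3R 14125458 to 14125895, rank 299), with replicate ranks of 309, 373 and 283. Both large subunits therefore carried a peak in every replicate, the one at Polr2B ranking higher in each. Polr2C and Polr2J, which pair to form the assembly platform of the enzyme, were bound at ranks 3811 and 701. At Polr2J the replicate ranks were 797, 896 and 560 (2L 17410350 to 17410720, summit at -131 bp). Among the subunits shared by all nuclear polymerases, Polr2H (rank 573), Polr2F (1687) and Polr2E (7280) were bound and Polr2K and Polr2L were not. The Polr2H summit lay at -174 bp (3L 21728592 to 21728997) and ranked 602, 822 and 462 in the replicates. Polr2I was bound at rank 2174 (3R 14308876 to 14309103). Polr2D and Polr2G, which form the stalk of the enzyme, were both without a thresholded peak, as was Polr2M.

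Among Taf genes the bound members were Taf5, Taf2, Taf4, Taf7, Taf13, Taf11 and Taf6. Taf5, a WD40-repeat scaffold of TFIID, had the highest rank of all members (2R 10879604 to 10880041, rank 201, summit at -166 bp), with replicate ranks of 184, 190 and 257. Taf2, which helps TFIID to contact the initiator, followed at rank 512 (3L 9888635 to 9889134, summit at -228 bp; replicate ranks 554, 677 and 445). In each replicate Taf5 ranked above Taf2. The start site closest to the summit was a neighbour's in both, that of Pex6 at Taf5 and that of CalpB at Taf2. At Taf2 the summit lay beyond the start site of CalpB, which is at -79 bp. Taf4, another part of the TFIID core, ranked 1631, with replicate ranks of 1889, 1579 and 1404. Taf11 and Taf13, histone-fold proteins that pair with each other, were bound at 3032 and 2411. Taf7, a partner of Taf1, was bound at 2404 but found within 100 bp only in replicates 1 and 2. The Taf6 peak (rank 4456) was found within 100 bp only in replicate 2, while replicate 1 had another peak within 500 bp of the start site, at rank 5696. Taf1, the largest subunit, had no thresholded peak and no pooled peak within 500 bp, although replicate 1 had one at rank 5647. The others without one were Taf3, Taf8, Taf9, Taf10, Taf10b, Taf12 and the testis paralogue Taf12L.

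General factors were bound except for TfIIFbeta and TfIIA-S-2, a paralogue of the small TFIIA subunit. TfIIA-L, the precursor of the large TFIIA subunits, ranked highest (3R 27253134 to 27253383, rank 1393), with replicate ranks of 1898, 1029 and 1132. Its peak lay at an internal start site, 2157 bp into the gene from the outer one, within 500 bp of a start site of pll, the kinase gene of the Toll pathway. TfIIB, the bridge between TBP and the polymerase, followed at 2057 (2L 10430934 to 10431148, summit at -279 bp; replicate ranks 2790, 1937 and 1481). TfIIA-S ranked 3123, TfIIS, which rescues stalled polymerase, 3874 and TfIIFalpha 6607. TfIIEalpha and TfIIEbeta, the subunits of TFIIE, were bound at ranks 3284 and 4985 with summits at -89 and -87 bp. The partners in TFIIF differed: TfIIFalpha had replicate ranks of 6450, 8839 and 6645, and TfIIFbeta had only a peak at rank 23739 in replicate 2.

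In Mediator, with subunits assigned to modules as in the yeast and mammalian complexes, the middle module was bound at 7 of 8 genes (87.5%), the tail at 4 of 6 (66.7%) and the head at 6 of 10 (60%), beside 35.4% of all genes. This order depends on the list: with all pooled peaks the shares were 87.5%, 83.3% and 90% (51.8% of all genes), and with the 4360 strongest thresholded peaks 50%, 33.3% and 30% (21.8%). MED29, also assigned to the tail, was not among the members by symbol and is not in these counts. MED14, the backbone that joins the modules, had no peak within 500 bp in any list. In the head, MED17, its central scaffold, led with a summit at -171 bp (3R 18188650 to 18189137, rank 430; replicate ranks 593, 602 and 277). MED30 followed at 715 (3L 654073 to 654462, summit at -188 bp; replicate ranks 858, 761 and 586). MED8, MED19, MED22 and MED6 were bound at ranks 2816, 4701, 5306 and 8223, and MED11, MED18, MED20 and MED28 were not bound. In the middle module MED31 ranked highest (3R 4641554 to 4641926, rank 845, summit at -198 bp), with replicate ranks of 1120, 706 and 721. MED7 followed at 1342 (3R 10760951 to 10761274, summit at -59 bp; replicate ranks 1238, 2048 and 1391). MED4 ranked 1848, MED21 3139, MED10 4556, MED26 6015 and MED1, the subunit that contacts nuclear receptors, 6045. The single member of this module without a peak was MED9. In the tail MED27 led (3R 5654789 to 5655206, rank 408, summit at -139 bp), with replicate ranks of 408, 521 and 380. MED16, MED25 and MED23 were bound at 2981, 4408 and 7423, while MED15 and MED24 were not.

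The MED26 peak differed from the rest in its position. Its strongest summit was the only one downstream of the gene's nearest start site, at 369 bp (4 788387 to 788830). It was found within 100 bp only in replicate 1, as the Taf6 summit was only in replicate 2. MED19, MED25 and MED31 had a second, weaker peak, at ranks 8435, 8304 and 7950. Together the bound members held 42 distinct thresholded peaks, of which 36 (85.7%) were found within 100 bp in all 3 replicates, beside 87.2% of all promoter peaks. In those 36 the summit positions of the replicates spanned a median of 36.5 bp (7 to 94).

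Summits lay just upstream of the member's closest start site. At MED6, Taf4, Taf7 and TfIIA-L that start site is internal to the gene. Of 39 strongest summits 38 (97.4%) were upstream, against 90.2% of all bound genes, and 27 (69.2%) lay 50 to 200 bp upstream, against 50.1%. The median was -135 bp for the members and -137 bp for all bound genes. In the replicates the members' median was -144, -127 and -141 bp (mean -137 ± 9.07, SD, n = 3). The medians of -135 and -137 bp differed by less than this SD, which is that of the members' median alone. The quartiles were -184 and -78 bp for the members and -224 and -67 bp for all bound genes.

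**Figure D3:**
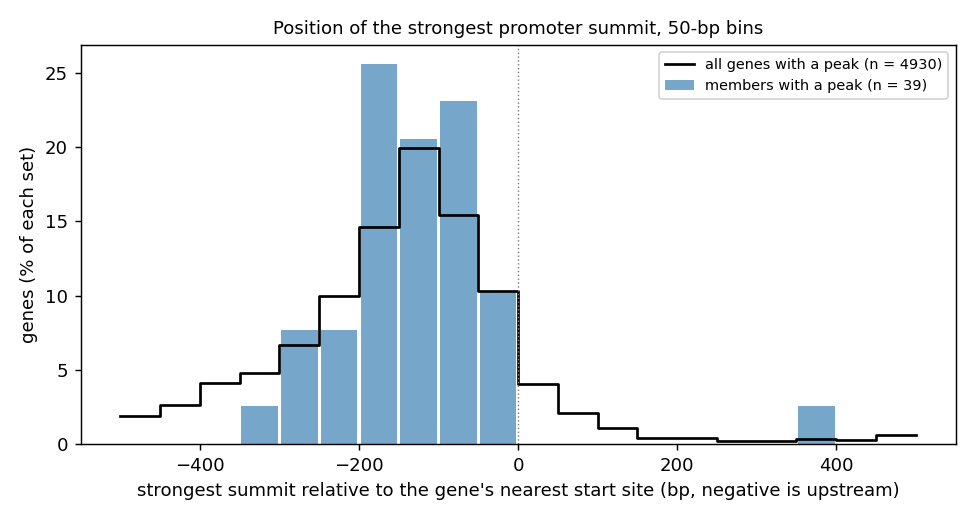
Position of the strongest thresholded summit relative to the gene's nearest start site (bp, negative is upstream), as a share of genes (%) in 50-bp bins. Bars are the 39 bound members and the black line all 4930 bound genes. Both sets are highest between 200 and 50 bp upstream, and 1 member, MED26, lies downstream, at 369 bp.

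Many members had a head-to-head neighbour. For 38 of 62 members (61.3%) a start site of another protein-coding gene lay upstream on the other strand within 500 bp, against 27.4% of all genes. Of these divergent members 28 had a peak (73.7%), beside 63.6% of all divergent genes. Of the 24 members without such a neighbour 11 had a peak (45.8%), beside 24.7% of all such genes. In the strongest peaks of replicates 1, 2 and 3 the divergent members were bound in 68.4%, 76.3% and 68.4% of cases, beside 65.3%, 65.1% and 60.8% of all divergent genes. The other members were bound in 54.2%, 45.8% and 45.8%, beside 25.3%, 25.8% and 23.3% of all such genes. For divergent promoters the members' share was closest to that of all genes in replicate 1. With neighbours counted only within 250 bp, the order of the members turned: 14 of 23 divergent members were bound (60.9%, beside 55.7% of all such genes) and 25 of 39 others (64.1%, beside 32%). Within 1000 bp the shares were 70.5% and 44.4%, beside 58.9% and 22%. In 27 of 28 (96.4%, beside 94.4% of all bound divergent genes) the summit was within 500 bp of the start site that faces the neighbour. The exception was TfIIA-L, whose neighbour TTLL6B faces the outer start site.

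A divergent window holds start sites of at least 2 genes, so the peak was not assigned to either. Of the 39 bound members 28 (71.8%) shared the window of their strongest peak with another gene, against 55.5% of all bound genes. In 21 of 39 (53.8%) the nearest start site was the member's own, against 71.5% of all bound genes. Among the 10 highest-ranked members it was a neighbour's at Taf5, Taf2, Polr2H, Polr2J, MED30 and MED31. It was the member's own at Polr2B, MED27, MED17 and MED7. At TfIIA-L, TfIIB and Polr2A, among others, it was again a neighbour's. Polr2I shared its window with su(Hw), an insulator protein gene, Taf6 with ash1, a trithorax group methyltransferase gene, MED7 with the condensin gene Cap-H2, and MED30 with Rev1, a translesion DNA polymerase gene. The strongest peaks also lay within reach of 140up (Polr2B), elm (MED27), CG12321 (MED17), CG11247 (Polr2H), CG15141 (Polr2J), CG9775 and slx1 (MED31), CG11699 (Polr2A) and Bug22 (TfIIB). Others were Pex6, needed for peroxisomes, beside Taf5, and CalpB, a calpain protease gene, beside Taf2. The mitochondrial genes GatC and PolG2 both lay in the window of Polr2C.

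**Figure D4:**
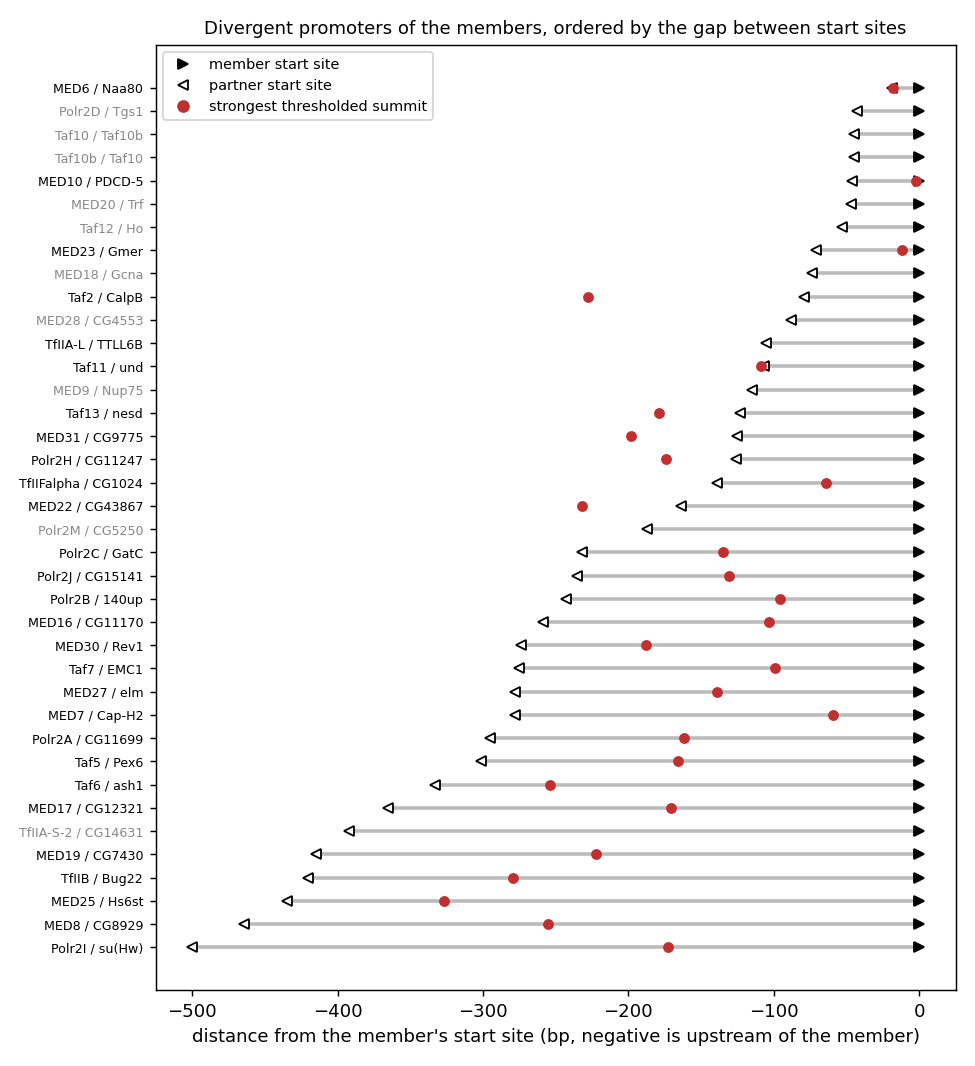
The 38 members with a head-to-head neighbour, ordered by the gap between the start sites, in bp from the member's facing start site (filled arrow), with the partner's start site (open arrow) and the strongest thresholded summit (red point; that of TfIIA-L lies outside the range). Grey names have no thresholded peak, and 7 of these 10 have gaps under 100 bp. In 21 of 28 bound members (75%, beside 73.5% of all bound divergent genes) the summit lies between the start sites. At Taf2, Polr2H, MED31, MED22, Taf13 and Taf11 it lies beyond the partner's start site, as seen from the member.

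With classes chosen after the values were seen, members with a gap under 100 bp were bound in 4 of 11 cases (36.4%), and those with gaps of 100 to 199, 200 to 299 and 300 to 500 bp in 7 of 9, 9 of 9 and 8 of 9. In the replicates' strongest peaks 2, 5 and 4 of the 11 short-gap members were bound. Over all divergent genes the shares in these classes were 52.6%, 48.4%, 71.1% and 72.7%. The 7 short-gap members without a peak were MED18, MED20, MED28, Polr2D, Taf10, Taf10b and Taf12. Taf10 and Taf10b face each other across 45 bp, so these 2 members share 1 region, and both are in the counts. MED20 faces Trf, a TBP-related factor gene, across 47 bp.

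Within 100 bp of the strongest summit none of the 39 bound members held TATCGATA, against 381 of 4144 promoter summits of the thresholded list (9.19%). The 4144 are all promoter summits, including weaker ones at genes with several, while each member counts once, by its strongest. The BEAF-32 sequence was present at 13 (33.3%, against 41.5%) and TATAAA at 18 (46.2%, against 38.1%). GAGAG was at 6 (15.4%, against 17.7%) and the M1BP core at 3 (7.69%, against 6.64%), namely MED10, MED23 and Taf6. Matches were counted on both strands and at any distance from the start site. A TATAAA match therefore need not be a working TATA box. Within 200 bp of the summit 4 members held a DRE (10.3%, against 14.7%). A motif match is a description of the sequence and does not show that a factor is bound.

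In the 200 bases upstream, a window chosen after the summit values were seen, 11 of 62 members (17.7%) had one, against 8.2% of all genes. Of these 11 members 5 were bound (45.5%), and of the 51 without it 34 (66.7%). Over all genes the shares were ordered the other way: 677 of 1143 with an upstream DRE were bound (59.2%) and 33.2% of those without. The 5 bound members were MED7, MED8, MED17, MED25 and MED26. The DRE lay 127 to 319 bp from the strongest summit in all but MED26. There it lay 959 bp away, upstream of a start site other than the one closest to the summit. Of the 677 bound genes with an upstream DRE 351 (51.8%) had it within 100 bp. The 6 members with a DRE and no peak were MED9, MED18, MED28, Polr2D, Polr2L and Taf3, of which 4 also had a partner within 115 bp.

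Of the 23 members without a thresholded peak, 13 had a weaker pooled peak within 500 bp (56.5%), beside 2299 of the 9015 genes without a thresholded peak (25.5%). No peak in any list was found at 4 of the 23 (17.4%, beside 57%): MED14, MED24, Taf3 and TfIIA-S-2. Counting any of the 30000 pooled peaks, 52 of 62 members had one (83.9%), beside 51.8% of all genes. In the whole replicate lists the share was 83.9%, 85.5% and 75.8%, beside 53%, 54.9% and 50.3% of all genes. At MED15 the nearest thresholded summit lay 520 bp away on the upstream side, just outside the window (rank 731, at CG4297), and at Taf8 594 bp away, also upstream (rank 7599, at Mvb12). At the other 21 it lay 1033 bp (MED20) to 104878 bp (Taf12L) away. In Mediator the distances were 1976 bp at MED11, 3008 bp at MED18, 3147 bp at MED14, 3701 bp at MED28, 4431 bp at MED24 and 4759 bp at MED9. Among polymerase genes they were 2049 bp at Polr2L, 2300 bp at Polr2G, 2315 bp at Polr2K, 2701 bp at Polr2M and 11971 bp at Polr2D. All of these are far beyond the promoter window. For Taf genes they were 1436 bp at Taf12, 1854 and 1809 bp at Taf10 and Taf10b, 2684 bp at Taf9, 10656 bp at Taf1 and 15982 bp at Taf3, and for general factors 6713 bp at TfIIFbeta and 15010 bp at TfIIA-S-2. The median distance was 2701 bp, against 6883 bp for all genes without a promoter peak.

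**Figure D5:**
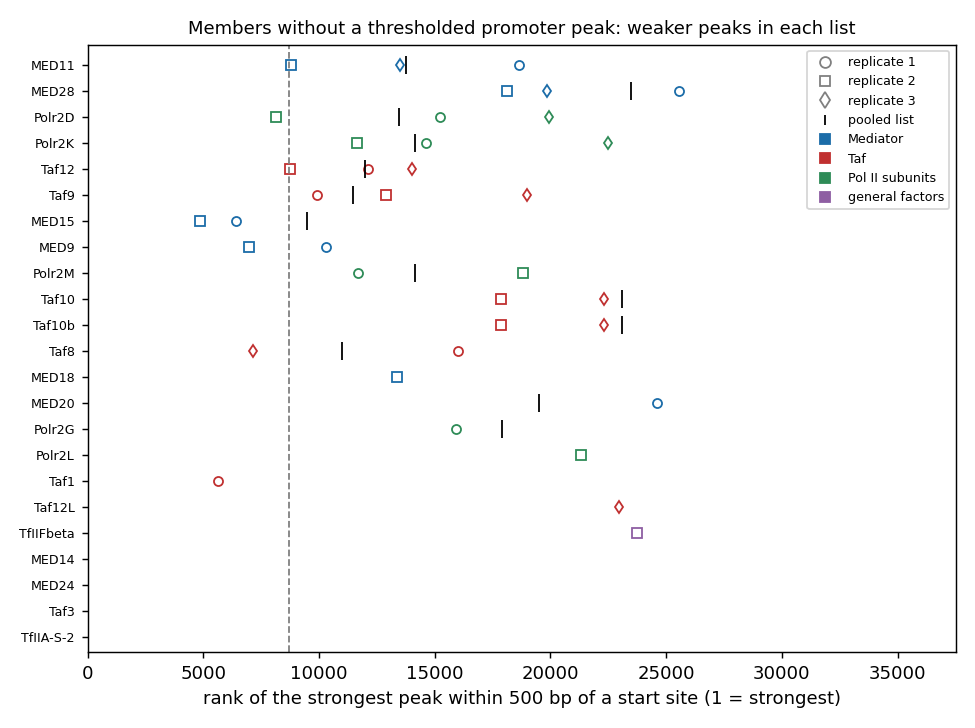
Rank of the strongest peak within 500 bp of a start site in each replicate (open symbols, coloured by class as in the key) and in the pooled list (black tick) for the 23 members without a thresholded peak. The dashed line marks rank 8721, the length of the thresholded list. Only MED15, MED9, Polr2D, Taf1 and Taf8 have a replicate symbol to its left, and MED14, MED24, Taf3 and TfIIA-S-2 have none.

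Of the members without a thresholded peak, 6 had a weaker peak within 500 bp in all 3 replicates: MED11, MED28, Polr2D, Polr2K, Taf9 and Taf12. By pooled rank MED15 came closest, at 9494, with replicate ranks of 6403 and 4846 and no peak in replicate 3. Taf8 followed at 10993, with ranks of 16000 in replicate 1 and 7165 in replicate 3. These 2 are also the genes with a thresholded summit just outside the window. Taf9 had a pooled rank of 11448 (replicates 9912, 12882 and 18978) and Taf12 one of 11969 (12123, 8728 and 14038). Polr2D ranked 15234, 8125 and 19930, so it was within the strongest 8721 peaks in replicate 2 only. The others lay deeper in the lists: MED11 at a pooled rank of 13762, Polr2K at 14126, Polr2M at 14160, Polr2G at 17914, MED20 at 19493, Taf10 and Taf10b at 23098 (1 peak) and MED28 at 23483. MED9, MED18, Polr2L, Taf1, Taf12L and TfIIFbeta had peaks in replicate lists alone, the highest-ranked that of Taf1 and then that of MED9 in replicate 2, at 6990.

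Pol II machinery genes with other symbols were counted the same way, from a list of 37. A promoter peak was present at 21 (56.8%; replicates 57.7% ± 4.13, SD, n = 3), beside 35.4% of all genes. TFIIH, whose subunits open the DNA and phosphorylate the polymerase, was bound at 8 of 10, led by Ssl1 at rank 20 (replicate ranks 25, 18 and 14), which is above every member. The exceptions were Tfb4 and Tfb2, annotated as mrn, and mrn did have peaks at ranks 1203 and 1236 in replicates 2 and 3. Pausing and elongation genes were bound at 10 of 13, led by TH1, a subunit of the pausing factor NELF, at rank 392, and Cdk12, a kinase of the polymerase tail, at 759. The elongation factor gene Spt5, Cdk9 and Su(Tpl) were not bound. Of the Mediator kinase module skd (rank 1160) and Cdk8 (5186) were bound and kto and CycC were not. None of Tbp, Trf and Trf2 carried a thresholded peak, nor did the termination and phosphatase genes Fcp1, Ssu72 and Pcf11. All 3 replicates had weaker peaks at Tbp (8735, 7341 and 16635), Trf2 (10855, 15596 and 10060) and Ssu72 (10422, 9879 and 7656). The same held for CycC and Su(Tpl). Fcp1 had one in replicates 1 and 2 (12371 and 10651), Pcf11 in replicate 2 only (6711) and Trf in replicate 1 only (24623). Of 4 testis paralogues of Taf genes only mia was bound, at rank 7526.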

How the data were processed

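Per the deposited file listings, the authors made 1 peak list from each replicate's alignments and 1 from the 3 together, each with the same 1 control file, and derived the thresholded list from them on dm6. Chromatin was sonicated to 200 to 800 bp, per the labels. The sources used here do not give the aligner, peak caller, IDR threshold or read numbers. Peaks were ordered in each list by the deposited signal, which served no other purpose. The −log10 q-value the authors deposited was left aside, since 97.3% of thresholded peaks shared its highest value. Summits are column 2 plus column 10 of the deposited lists.

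Start sites (19607) came from Ensembl release 115, BDGP6, and sequence from the RefSeq assembly, whose chromosome lengths exceeded the last peak end on each of the arms 2L, 2R, 3L, 3R, 4 and X. Coordinates are 1-based on dm6. A replicate counted as holding a peak when its summit was no more than 100 bp away. Scripts used Python 3.11.15, numpy 2.4.6 and matplotlib 3.10.9 and were tested on simulated data. The members, lists and classes were chosen with earlier results of these data known. All members are named, with full values for the 10 highest-ranked peaks found in all 3 replicates and the leader of each class. Of the 37 other genes 1 was matched through a synonym. Alternatives were other windows, lists and start sites, motif windows, and the thresholded peaks that were also among the strongest of each pair of replicates.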

Additional observations from a re-analysis of the deposited data

How the results depend on the processing

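The count of 39 bound members was 35 and 41 with promoter windows of 250 and 1000 bp (beside 29% and 39.3% of all genes), 27 with the 4360 strongest thresholded peaks (21.8%), 52 with all pooled peaks (51.8%), 37 with the outermost start site only (33%), and 33 when a peak had to be among the strongest of the other 2 replicates with any 1 left out, beside 28.3% to 29.7% of all genes. It was 23 when the nearest start site had to be the member's (27%), where the polymerase and Taf counts were 4 and 2. With the 4360 strongest peaks the Mediator count was 9 in place of 17, and with all pooled peaks the Taf count was 12 in place of 7. The 8721 strongest pooled peaks are the thresholded list, so that alternative gave identical counts. With head-to-head start sites within 250 bp, 14 bound members were divergent and 25 were not, in place of 28 and 11. The bound shares were then 60.9% and 64.1%, in place of 73.7% and 45.8%, and within 1000 bp they were 70.5% and 44.4%. The median summit position was -146 to -139 bp over the thresholded peaks kept with 1 replicate left out. Those peaks and their summits still come from all 3 replicates, so these settings do not show what 2 replicates alone would give. Motif counts follow window length: with 50 bp BEAF-32 was at 8, TATA at 7 and GAGA at 3 members, and with 200 bp DRE was at 4, M1BP at 6 and GAGA at 12. No paired analysis was possible because the samples form 1 group. Without read counts, weak peaks could not be weighed by depth.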

Other observations

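The 300 bases upstream of start sites had a median GC content of 32.7% in bound members, 37.3% in members without a peak and 36% in all protein-coding genes. Each gene entered with 1 value, also where it had more than 1 start site. All 6 members with more than 1 start site were bound. The choice of start site for such genes therefore affects the median of the bound members and not that of members without a peak. No difference in GC content is drawn from these medians. Within 100 bp of the strongest summits of members the GC content ran from 16.9% at Taf2 to 50.2% at Polr2E. The part of base composition in the bound share was not tested.

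A thresholded summit inside the gene and away from its start sites was rare. The strongest summits of MED6, MED26, Taf4, Taf7 and TfIIA-L also lay inside the gene. They were within 500 bp of a start site and are not in this count. Of 62 members 1, MED20, held a thresholded summit inside the gene and over 500 bp from its own start sites (1.61%), against 10.9% of all protein-coding genes, and gene length was not taken into account. That summit lay 1033 bp downstream of the MED20 start site, at the far end of the gene. It was within 500 bp of a start site of a neighbouring gene, poe. Of the members 6 had more than 1 start site, and all 6 were bound (MED6, MED21, MED26, Taf4, Taf7 and TfIIA-L), against 52.9% of all such genes. Members with 1 start site were bound in 33 of 56 cases (58.9%), against 29% of all genes with 1.

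The members bound in the strongest peaks of 1 or 2 replicates were MED6, MED9, MED15, MED23, MED26, Polr2D, Taf1, Taf6, Taf7, Taf8 and TfIIFalpha. Of these, 5 were bound in 1 replicate only: MED26 and Taf1 in replicate 1, MED9 and Polr2D in replicate 2, and Taf8 in replicate 3.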
